A study of Mus musculus with 18 samples.

Results

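The genes described here are the core of the transforming growth factor beta (TGF-beta) pathway in mouse CD8+ T cells: the ligand gene Tgfb1, the receptor genes Tgfbr1 and Tgfbr2, the signal carriers Smad2, Smad3 and Smad4, and the inhibitors Smad7 and Skil. They were chosen by name, and all 8 were found among the 14695 genes of the count table, 7 by their name and Smad7, whose name was blank, by its gene identifier. Poly-A RNA was sequenced from CD8+ T cells of spleen and lymph node, kept as primary cells and targeted with CRISPR/Cas9 at 1 of 3 sites. The 6 groups, with 3 libraries each, were Atf4 KO cells cultured 24 h with halofuginone or left untreated, Cebpg KO cells with halofuginone or untreated, and cells targeted at Rosa26, a neutral site, with halofuginone or untreated. Targeting with CRISPR/Cas9 was thus shared by all cells, the controls included. Halofuginone blocks the enzyme that loads proline onto its transfer RNA and so starts the integrated stress response, in which ATF4 and its partner C/EBP-gamma, the product of Cebpg, activate genes of amino acid supply.

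TGF-beta binds TGFBR2, which then activates TGFBR1, and this receptor pair phosphorylates SMAD2 and SMAD3. The phosphorylated SMADs join SMAD4, enter the nucleus and change transcription. Among their targets are the genes of the pathway's own brakes: SMAD7, which blocks and degrades the activated receptor, and SKIL (SnoN), a co-repressor that binds SMADs on DNA. In CD8+ T cells TGF-beta is known for restraining effector functions and for inducing the integrin CD103, the product of Itgae. In fibrosis, halofuginone has been studied as a compound that lowers TGF-beta signalling through SMAD3.

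In these T cells, halofuginone raised the mRNA of 5 of the 8 genes in every genotype. The drug response was broad: of all genes, 23.1% to 23.6% were called higher and 24.1% to 28% lower, depending on genotype. Skil rose most, 3.05- to 3.76-fold, followed by Smad7 at 1.95- to 2.59-fold and Tgfbr2 at 1.63- to 2.35-fold. Smad3 rose 1.32- to 1.76-fold and Smad4 1.22- to 1.43-fold, and none of the 8 fell. Tgfb1, Tgfbr1 and Smad2 did not pass the test in any genotype. With the drug present, the same 5 genes stood higher in both knockouts than in Rosa26 cells, with the highest means in Atf4 KO cells. Of all genes, 11.8% were called higher than in Rosa26 cells in treated Atf4 KO cells and 5.74% in treated Cebpg KO cells.

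The promoter sequences of Tgfbr2 and Smad3, which rose together with the drug, and of Tgfbr1, which did not pass the test, are shown because the receptor pair and SMAD3 are the entry to the pathway. Each is the 250 bases before the annotated start, from RefSeq on GRCm38.p6, read 5' to 3' on the gene's strand: chr9:116175364-116175613 on the minus strand for Tgfbr2, chr9:63757995-63758244 on the minus strand for Smad3 and chr4:47352972-47353221 on the plus strand for Tgfbr1. Capitals mark the SMAD element, CAGAC or on the other strand GTCTG.
Tgfbr2: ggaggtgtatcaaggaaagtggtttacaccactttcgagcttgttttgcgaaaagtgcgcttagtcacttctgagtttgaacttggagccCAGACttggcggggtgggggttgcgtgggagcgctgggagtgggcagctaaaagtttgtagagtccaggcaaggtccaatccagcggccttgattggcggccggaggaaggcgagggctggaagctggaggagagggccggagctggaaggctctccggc
Smad3: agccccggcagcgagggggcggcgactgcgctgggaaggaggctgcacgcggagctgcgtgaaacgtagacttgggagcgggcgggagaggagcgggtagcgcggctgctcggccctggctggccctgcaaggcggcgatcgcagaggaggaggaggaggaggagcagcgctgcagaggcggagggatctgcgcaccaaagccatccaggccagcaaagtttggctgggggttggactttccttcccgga
Tgfbr1: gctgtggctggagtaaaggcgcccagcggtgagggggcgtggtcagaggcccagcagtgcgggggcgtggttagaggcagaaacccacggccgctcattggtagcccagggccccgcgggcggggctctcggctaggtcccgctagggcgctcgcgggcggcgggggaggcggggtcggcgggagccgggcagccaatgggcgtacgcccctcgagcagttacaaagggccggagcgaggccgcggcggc

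The Tgfbr2 promoter held 1 such element, which starts 160 bases before the gene start, and the Smad3 and Tgfbr1 windows held none. RefSeq gave 2 promoters for Tgfbr1, of which that with the lower coordinate was used, and the other is not described. Of 32851 mouse promoters of the same length, 42.2% held this 5-letter element on 1 strand or the other. The AP-1 element TGANTCA, present in 6.75% of these promoters, and the composite element TGATGNAA bound by pairs of C/EBP and ATF factors, present in 3.45%, occurred in none of the 3 windows on either strand. The motifs describe letters in these windows and say nothing of binding.

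Levels are in CPM (counts per 1 M counts of a library, M for mega) after TMM scaling, and the 8 genes had 477 to 5252 reads per library. Library totals ran from 14.2 to 20.3 M counts. Differences are log2 fold changes ± standard error from edgeR's quasi-likelihood test, called at an adjusted p (Benjamini-Hochberg over all 14695 genes) under 0.05. Nothing in the labels tells if replicate libraries stem from different mice or cultures, and the p-values cover the spread among these samples alone. In bulk RNA, fewer cells of a type and less RNA per cell cannot be told apart. Libraries labelled Atf4 KO held 267 to 378 CPM of Atf4 with the drug and 274 to 301 untreated, against 351 to 428 CPM with the drug and 256 to 281 CPM untreated in Rosa26 libraries. Cebpg stood at 93.4 to 105 CPM with the drug and 53.9 to 58.5 CPM untreated in libraries labelled Cebpg KO, against 167 to 183 CPM with the drug and 52.8 to 55.2 CPM untreated in Rosa26 libraries. Small insertions and deletions can leave the count of a gene as it was, so these levels do not check the genotype labels.

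By their share of unconfirmed transcripts, a single library stood apart in each halofuginone group: Atf4 KO replicate 3, Cebpg KO replicate 3 and Rosa26 replicate 2. These transcripts (829 genes of the annotation class TEC) took 0.0735% of counts in that Atf4 KO library, against 0.216% to 0.302% in the other 2 of its group. The share was 0.151% against 0.264% to 0.287% in the Cebpg KO group and 0.0542% against 0.189% to 0.225% in the Rosa26 group. By chi-square per degree of freedom between the counts of 2 libraries, that Atf4 KO library (30.7 and 38.1, against 5.92 between the others) and that Rosa26 library (19.98 and 16.3, against 7.32) were also the most distant of their groups. In treated Cebpg KO cells this measure set replicate 2 apart instead (26.7 and 18.3, against 11.1 between replicates 1 and 3). Within their groups these 3 libraries had the highest Tgfb1, Tgfbr2 and Smad7 and the lowest Malat1, a nuclear non-coding RNA, and the part of this in the results was tested only by leaving them out. Without them each of the 15 halofuginone calls held, with log2 fold changes of 0.31 to 2.00 in place of 0.29 to 1.91.

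**Figure D1:**
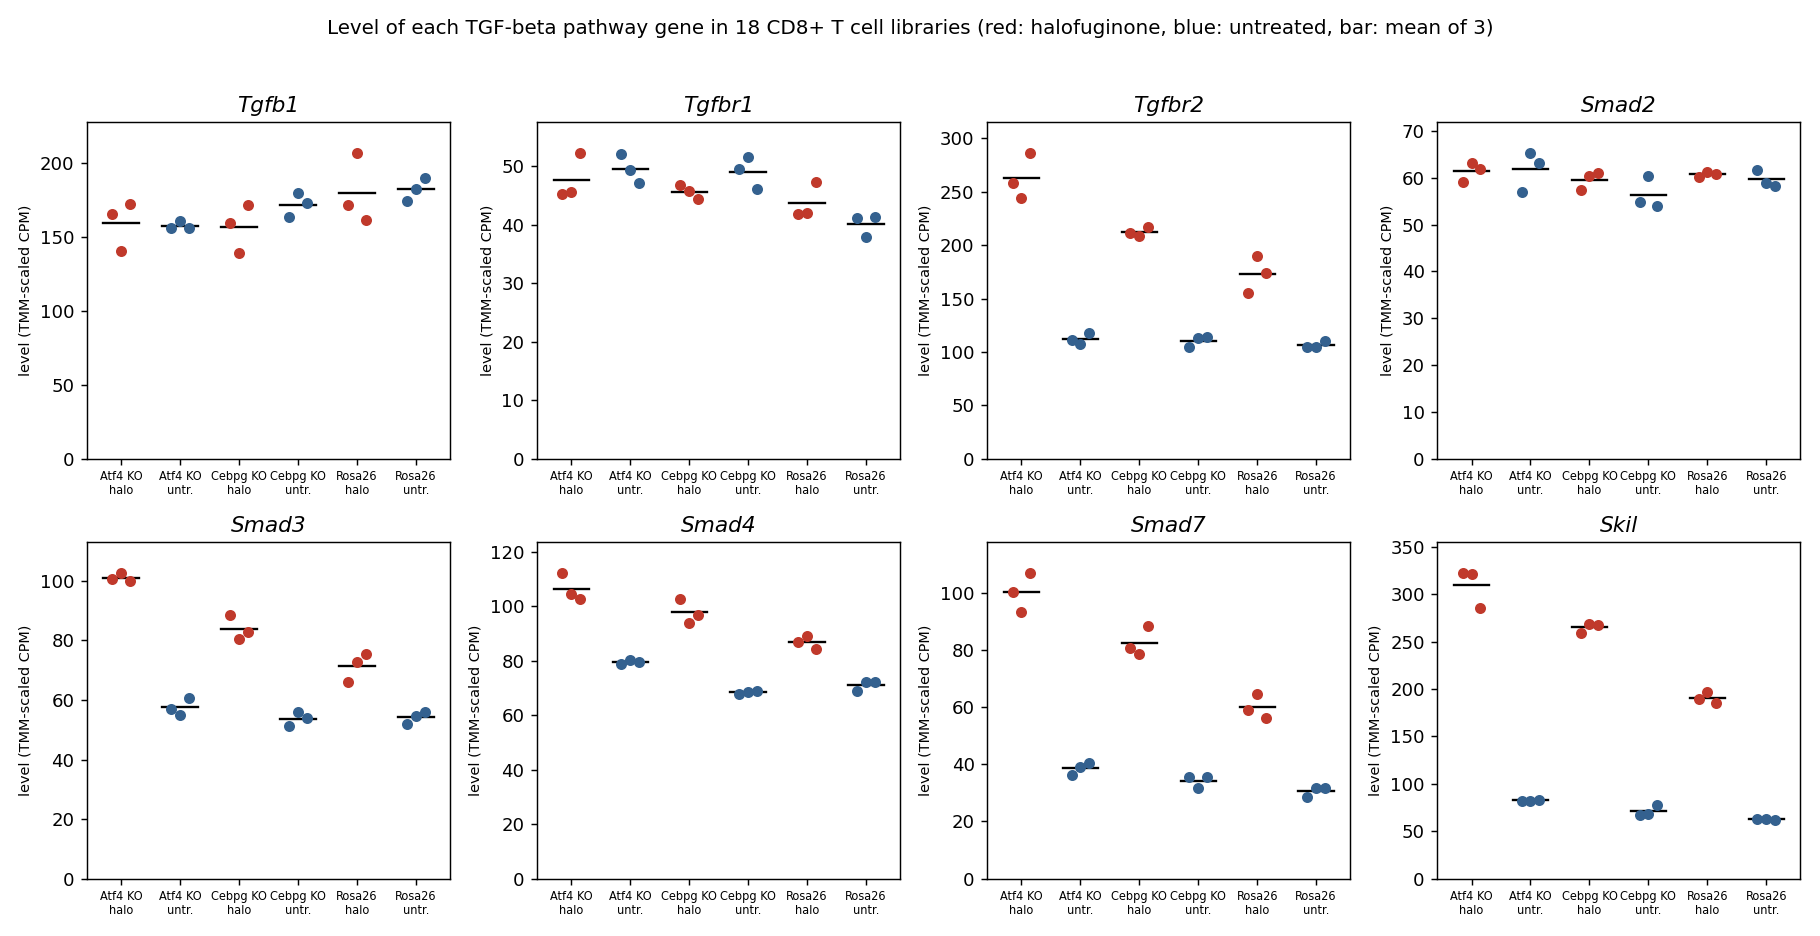
Level of each of the 8 genes in TMM-scaled CPM (y axes, from 0) in the 3 libraries of each group (x axes), with halofuginone in red, untreated in blue and the mean as a bar. Tgfbr2, Smad3, Smad4, Smad7 and Skil show every halofuginone library above the untreated libraries of its genotype. Tgfb1 and Smad2 show treated and untreated libraries that overlap within each genotype.

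Tgfb1 encodes the ligand that T cells themselves secrete in latent form. Its level was 166.0, 140.5 and 173 CPM in Atf4 KO cells with halofuginone, against 156, 161 and 156 CPM untreated. In Cebpg KO cells it was 159.9, 139.5 and 172 CPM with the drug, against 163, 179.8 and 173 CPM untreated. In Rosa26 cells it was 172, 207 and 162 CPM with the drug, against 174, 183 and 190.3 CPM untreated. Treated and untreated libraries overlapped in every genotype, and the log2 fold changes of 0.02 ± 0.0905, -0.13 ± 0.0905 and -0.02 ± 0.09 in Atf4 KO, Cebpg KO and Rosa26 cells did not pass the test (adjusted p = 0.893, 0.245 and 0.885). Without the 3 libraries that stood apart, the Cebpg KO value of -0.16 passed it (adjusted p = 0.0258).

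Tgfbr1 encodes the kinase of the receptor pair that phosphorylates SMAD2 and SMAD3. It stood at 45.3, 45.5 and 52.3 CPM in Atf4 KO cells with halofuginone, against 52.1, 49.3 and 47.1 CPM untreated. In Cebpg KO cells it stood at 46.8, 45.7 and 44.3 CPM with the drug, against 49.6, 51.6 and 46.0 CPM untreated. Rosa26 cells had 41.8, 42.0 and 47.3 CPM with the drug, against 41.2, 37.9 and 41.4 CPM untreated, a pair of groups that did not overlap. The changes were -0.05, -0.11 and 0.12 on the log2 scale in Atf4 KO, Cebpg KO and Rosa26 cells (adjusted p = 0.585, 0.258 and 0.197). The Rosa26 value came under the threshold with upper-quartile scaling (adjusted p = 0.0399), with genes of at least 50 counts (adjusted p = 0.0449) and without the libraries that stood apart (adjusted p = 0.0314).

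Tgfbr2 encodes the receptor that binds the ligand. Its level was 258, 244.5 and 286 CPM in Atf4 KO cells with halofuginone, against 111, 107 and 118 CPM untreated. Cebpg KO cells had 211, 209 and 217 CPM with the drug, against 105, 113 and 114 CPM untreated. Rosa26 cells had 155, 189.8 and 174 CPM with the drug, against 104.4, 104.5 and 109.9 CPM untreated. Every treated library was above every untreated library, and treated groups were apart from each other, in the order Atf4 KO, Cebpg KO, Rosa26. Of all genes, 33.1% did not overlap between treated Cebpg KO and treated Rosa26 cells. The knockouts were not tested against each other, and their share of genes without overlap was not computed. Tgfbr2 rose by 1.23 ± 0.0715 in Atf4 KO (adjusted p = 2.31e-11), 0.94 ± 0.0714 in Cebpg KO (adjusted p = 1.02e-09) and 0.70 ± 0.0712 in Rosa26 cells (adjusted p = 9.62e-08).

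The mRNA of the receptor pair therefore shifted in ratio. Per kilobase of exon, the ratio of Tgfbr2 to Tgfbr1 was 4.40 ± 0.131 in Atf4 KO cells with halofuginone, against 1.81 ± 0.161 untreated (SD, n = 3 libraries each, as for the next ratios). The ratio was 3.72 ± 0.167 with the drug against 1.80 ± 0.151 untreated in Cebpg KO cells, and 3.16 ± 0.38 with the drug against 2.11 ± 0.0882 untreated in Rosa26 cells. The ratio is computed from both levels and adds no test of its own.

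SMAD2 and SMAD3 are the substrates of the activated receptor. Smad2 ranged from 59.2 to 63.2 CPM in Atf4 KO, 57.3 to 61.0 CPM in Cebpg KO and 60.1 to 61.4 CPM in Rosa26 cells with halofuginone. Untreated libraries had 56.9 to 65.3 CPM in Atf4 KO, 54.1 to 60.3 CPM in Cebpg KO and 58.3 to 61.8 CPM in Rosa26 cells, so treated and untreated overlapped throughout. Its log2 fold changes were -0.01, 0.08 and 0.03 in Atf4 KO, Cebpg KO and Rosa26 cells (adjusted p = 0.917, 0.331 and 0.762). The Cebpg KO value came under the threshold with upper-quartile scaling (adjusted p = 0.0281) and among genes of at least 50 counts (adjusted p = 0.0285).

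Smad3, by contrast, was at 100.5, 103 and 100.1 CPM in Atf4 KO cells with halofuginone, against 56.8, 55.1 and 60.7 CPM untreated. Its levels in Cebpg KO cells were 88.5, 80.4 and 82.9 CPM with the drug, against 51.2, 55.8 and 54.0 CPM untreated. In Rosa26 cells they were 66.2, 72.8 and 75.6 CPM with the drug, against 52.0, 54.5 and 56.0 CPM untreated. No treated library overlapped an untreated one of its genotype, and Smad3 rose by 0.81 ± 0.0633, 0.65 ± 0.0638 and 0.40 ± 0.0637 in Atf4 KO, Cebpg KO and Rosa26 cells (adjusted p = 1.72e-09, 4.73e-08 and 2.99e-05). The difference between Smad2 and Smad3 was not tested.

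Smad4 encodes the partner shared by all receptor-activated SMADs. It had 112, 104 and 103 CPM in Atf4 KO cells with halofuginone, against 78.8, 80.2 and 79.4 CPM untreated. It had 103, 93.9 and 96.8 CPM in treated Cebpg KO cells, against 67.9, 68.6 and 69.0 CPM untreated, and 86.7, 89.0 and 84.4 CPM in treated Rosa26 cells, against 68.8, 72.3 and 72.1 CPM untreated. All treated libraries lay above all untreated ones, and the treated knockouts overlapped each other. The rise was 0.42 ± 0.0532, 0.51 ± 0.0536 and 0.29 ± 0.0535 in Atf4 KO, Cebpg KO and Rosa26 cells (adjusted p = 1.48e-06, 1.02e-07 and 0.000162), the smallest of the 5 called genes in each genotype.

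Both inhibitors had larger fold changes than the receptor and signal carrier genes in each genotype. Smad7 had 100.3, 93.2 and 107 CPM in Atf4 KO cells with halofuginone, against 36.4, 39.2 and 40.3 CPM untreated. Cebpg KO cells held 80.7, 78.4 and 88.4 CPM with the drug, against 35.5, 31.8 and 35.6 CPM untreated, and Rosa26 cells held 59.0, 64.4 and 56.3 CPM with the drug, against 28.6, 31.8 and 31.7 CPM untreated. No treated and untreated libraries overlapped, and the rise was 1.38 ± 0.0764 in Atf4 KO, 1.27 ± 0.0771 in Cebpg KO and 0.96 ± 0.0777 in Rosa26 cells (adjusted p = 1.18e-11, 4.09e-11 and 3.74e-09).

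Skil showed the widest gap between treated and untreated cells. It stood at 323, 322 and 286 CPM in Atf4 KO cells with halofuginone, against 81.9, 82.2 and 83.5 CPM untreated. In Cebpg KO cells it stood at 259, 269 and 268 CPM with the drug, against 66.8, 68.3 and 78.2 CPM untreated, and in Rosa26 cells at 189.6, 197 and 185 CPM with the drug, against 63.0, 62.9 and 61.7 CPM untreated. The lowest treated library, at 185 CPM in Rosa26, lay above the highest untreated one, at 83.5 CPM in Atf4 KO. The rise was 1.91 ± 0.0621, 1.90 ± 0.0625 and 1.61 ± 0.0624 in Atf4 KO, Cebpg KO and Rosa26 cells (adjusted p = 1.05e-14, 9.22e-15 and 1.14e-13). Ranked by fold change among all genes, Skil was 253rd in Atf4 KO, 325th in Cebpg KO and 523rd in Rosa26 cells.

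These counts stand against a broad response. Halofuginone raised 5 of the 8 genes and lowered 0 in each genotype, while of all genes 23.1% were called higher and 26.5% lower in Atf4 KO, 23.1% higher and 28% lower in Cebpg KO, and 23.6% higher and 24.1% lower in Rosa26 cells. The median log2 fold change of the 8 genes was 0.62 in Atf4 KO, 0.58 in Cebpg KO and 0.34 in Rosa26 cells, beside -0.04, -0.03 and 0.02 over all genes of these comparisons. Libraries of the compared groups did not overlap for 54.3% of all genes in Atf4 KO, 60.7% in Cebpg KO and 55.1% in Rosa26 cells. The same 15 calls held when any 1 of the 18 libraries was left out.

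**Figure D2:**
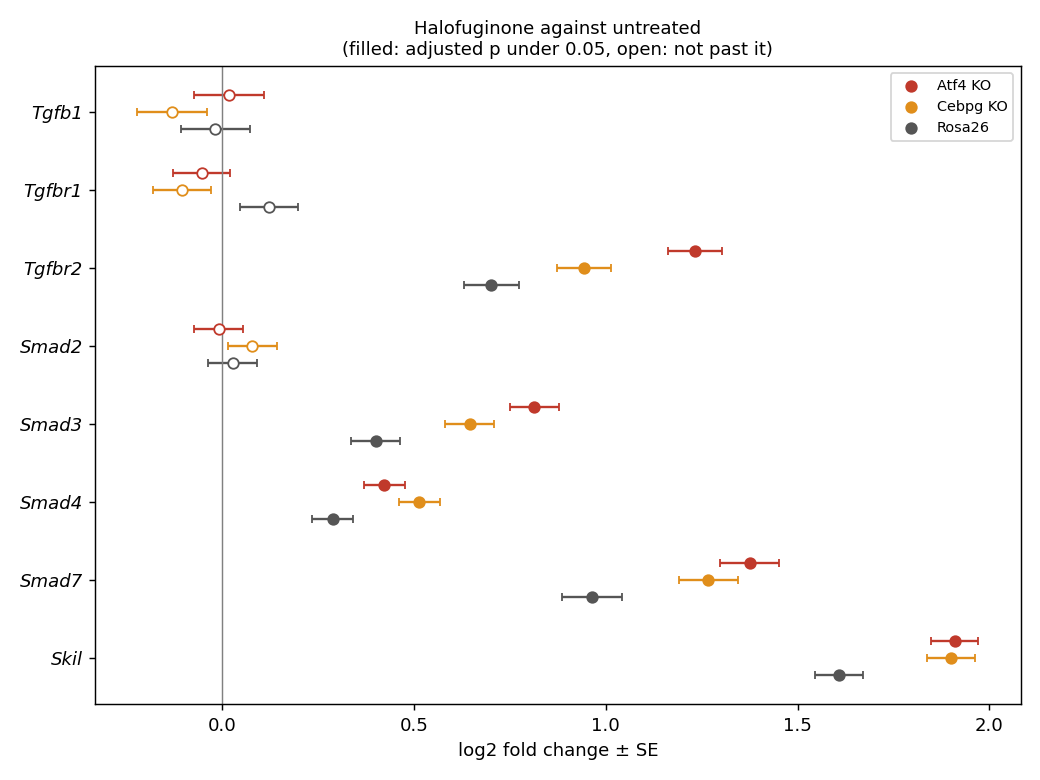
Log2 fold change of each gene (x axis, error bars 1 standard error) with halofuginone against untreated cells, in Atf4 KO, Cebpg KO and Rosa26 cells, with filled points past an adjusted p of 0.05. Skil lies farthest right at 1.61 to 1.91, and Tgfb1, Tgfbr1 and Smad2 are open points near 0.

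The relative abundance of the mRNAs changed with this. Per kilobase of exon, Tgfb1 was the most abundant of the 8 in untreated Rosa26 cells at 36.2 CPM, followed by Smad4 at 19.1 and Tgfbr2 at 13.0, and the other genes lay between 6.15 and 9.77. Skil was among the lowest there, at 6.45 CPM per kilobase, and reached 32.0 in treated Atf4 KO and 27.4 in treated Cebpg KO cells, against 19.7 in treated Rosa26 cells. In treated Atf4 KO cells it stood beside Tgfbr2 at 32.1 and Tgfb1 at 31.7 CPM per kilobase.

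The cells carried CD8 T cell markers throughout, with Cd8a at up to 1169 CPM and the 8 of 8 markers summing to 2846 to 3540 CPM in treated against 3767 to 3906 CPM in untreated Atf4 KO libraries. The sum was 3006 to 3236 treated against 3803 to 3825 CPM untreated in Cebpg KO and 3324 to 3935 treated against 3657 to 3760 CPM untreated in Rosa26 libraries. Of CD4 and regulatory T cell markers, 2 of 4 were measured, Zbtb7b and Foxp3, and summed to 17.0 to 20.4 treated against 11.8 to 13.9 CPM untreated in Atf4 KO, 15.4 to 17.4 treated against 9.74 to 12.4 CPM untreated in Cebpg KO and 33.6 to 36.3 treated against 8.19 to 9.09 CPM untreated in Rosa26 libraries. Over the 18 libraries, Zbtb7b ran from 1.85 to 29.0 CPM and Foxp3 from 4.73 to 11.3 CPM. Platelet markers, which matter because platelets store TGF-beta, were measured for 3 of 6 (Pf4, Ppbp, Itga2b) and summed to 8.77 to 12.3 treated against 3.94 to 7.95 CPM untreated in Atf4 KO, 7.08 to 12.6 treated against 3.23 to 5.33 CPM untreated in Cebpg KO and 4.04 to 7.97 treated against 3.03 to 5.16 CPM untreated in Rosa26 libraries. These sums were largely Itga2b, with a median of 5.48 and a maximum of 12.2 CPM over the libraries. Pf4 and Ppbp had medians of 0.41 and 0.11 CPM and maxima of 1.66 and 1.08 CPM. The myeloid list (1 of 7, Cd68) reached at most 6.87 CPM and the B cell list (2 of 5, Cd79a and Cd79b) at most 7.65 CPM in any library. The NK cell list (1 of 4, Eomes, which CD8 T cells also express) was lower in all treated groups, at 16.0 to 32.6 CPM against 46.7 to 86.1 CPM in untreated libraries. Pecam1, the measured member of 9 fibroblast and endothelial markers and a gene that T cells also express, stood at 54.7 to 59.7 treated against 37.3 to 42.7 CPM untreated in Atf4 KO, 49.9 to 53.6 treated against 31.8 to 36.2 CPM untreated in Cebpg KO and 38.7 to 39.9 treated against 27.2 to 28.5 CPM untreated in Rosa26 libraries. The other markers of these lists were not analysed here, and the part of other cells in the results was not tested.

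Without the drug, the knockouts differed from Rosa26 cells in fewer of the 8 genes. In untreated Atf4 KO cells 4 of the 8 genes were higher and 0 lower, where 11.7% of all genes were called higher and 14.3% lower. Skil was higher by 0.40 ± 0.0625 (adjusted p = 0.000109), Smad7 by 0.33 ± 0.0792 (adjusted p = 0.00443), Tgfbr1 by 0.30 ± 0.0752 (adjusted p = 0.00584) and Smad4 by 0.16 ± 0.0537 (adjusted p = 0.0331). For each of the 4 the libraries of the 2 groups did not overlap, as held for 49.9% of all genes. The Smad4 call was lost with RLE scaling (adjusted p = 0.0720) and with DESeq2 (adjusted p = 0.0693). Leaving out each of 8 libraries in turn also ended it (adjusted p from 0.0574 to 0.129): Rosa26 untreated replicates 1 and 3, the 3 untreated Atf4 KO libraries, and the halofuginone libraries Rosa26 replicate 2, Atf4 KO replicate 3 and Cebpg KO replicate 2. These halofuginone libraries are not in the comparison and enter only through the scaling and spread estimated over all libraries. Leaving out each of them moved the Smad4 value to 0.12.

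Tgfb1 was lower in untreated Atf4 KO cells without overlap, by a log2 difference of -0.21 ± 0.0903, which missed the threshold (adjusted p = 0.0956). Under other settings it passed: with RLE scaling (adjusted p = 0.0310), with the compared libraries fitted alone (adjusted p = 0.000109), without the libraries that stood apart (adjusted p = 0.00389) and with DESeq2 (adjusted p = 0.0223). It also passed without Rosa26 halofuginone replicate 2, Atf4 KO halofuginone replicate 3 or Cebpg KO halofuginone replicate 2 (adjusted p from 0.00678 to 0.0135). None of these libraries is in the comparison, and they enter only through the scaling and spread estimated over all libraries. Leaving out each of them moved the Tgfb1 value to -0.25. Tgfbr2, Smad3 and Smad2 differed by 0.07, 0.09 and 0.05 (adjusted p = 0.467, 0.340 and 0.582).

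In untreated Cebpg KO cells 1 of the 8 genes was called, where 2.71% of all genes were called higher and 2.29% lower. It was Tgfbr1, higher by 0.29 ± 0.0751 (adjusted p = 0.0318). The call was lost when an untreated Rosa26 library or untreated Cebpg KO replicate 1 or 2 was left out (adjusted p from 0.0647 to 0.144). Skil, at 0.18 ± 0.0628 (adjusted p = 0.0878), and Smad7, at 0.16 (adjusted p = 0.233), did not overlap between the groups, as held for 39.9% of all genes, but missed the threshold. Skil passed it with the compared libraries fitted alone (adjusted p = 0.0184) and without the libraries that stood apart (adjusted p = 0.00618). In the order of untreated groups, both inhibitors ran from Atf4 KO through Cebpg KO to Rosa26 with no overlap between neighbours. The knockouts were not tested against each other, and the share of all genes without overlap between them was not computed.

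With halofuginone, 5 of the 8 genes were higher and 0 lower in each knockout than in Rosa26 cells, where 11.8% of all genes were called higher and 16.3% lower in Atf4 KO cells, and 5.74% higher and 13.1% lower in Cebpg KO cells. These are the 5 genes that rose with the drug. In Atf4 KO cells Smad7 was higher by 0.74 ± 0.0741 (adjusted p = 3.4e-07), Skil by 0.70 ± 0.0596 (adjusted p = 3.94e-08), Tgfbr2 by 0.61 ± 0.0702 (adjusted p = 2.01e-06), Smad3 by 0.50 ± 0.0625 (adjusted p = 4.86e-06) and Smad4 by 0.29 ± 0.0529 (adjusted p = 0.000259). In Cebpg KO cells Skil was higher by 0.48 ± 0.0596 (adjusted p = 1.47e-05), Smad7 by 0.46 ± 0.0744 (adjusted p = 0.000205), Tgfbr2 by 0.30 ± 0.0702 (adjusted p = 0.00522), Smad3 by 0.23 ± 0.0628 (adjusted p = 0.0131) and Smad4 by 0.17 ± 0.0531 (adjusted p = 0.0268). Treated libraries of each knockout lay above those of Rosa26 for all 5 genes, and of all genes 33.9% in Atf4 KO and 33.1% in Cebpg KO cells did not overlap with Rosa26. The Cebpg KO calls of Smad3 and Smad4 were lost without treated Rosa26 replicate 1 or treated Cebpg KO replicate 1, and that of Smad4 also without treated Rosa26 replicate 3 (adjusted p from 0.0611 to 0.146). Tgfb1, Tgfbr1 and Smad2 did not pass the test in either knockout, at -0.17, 0.13 and 0.01 in Atf4 KO cells (adjusted p = 0.170, 0.237 and 0.901) and -0.20, 0.06 and -0.03 in Cebpg KO cells (adjusted p = 0.142, 0.615 and 0.787). Both knockouts were set against the same Rosa26 libraries.

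**Figure D3:**
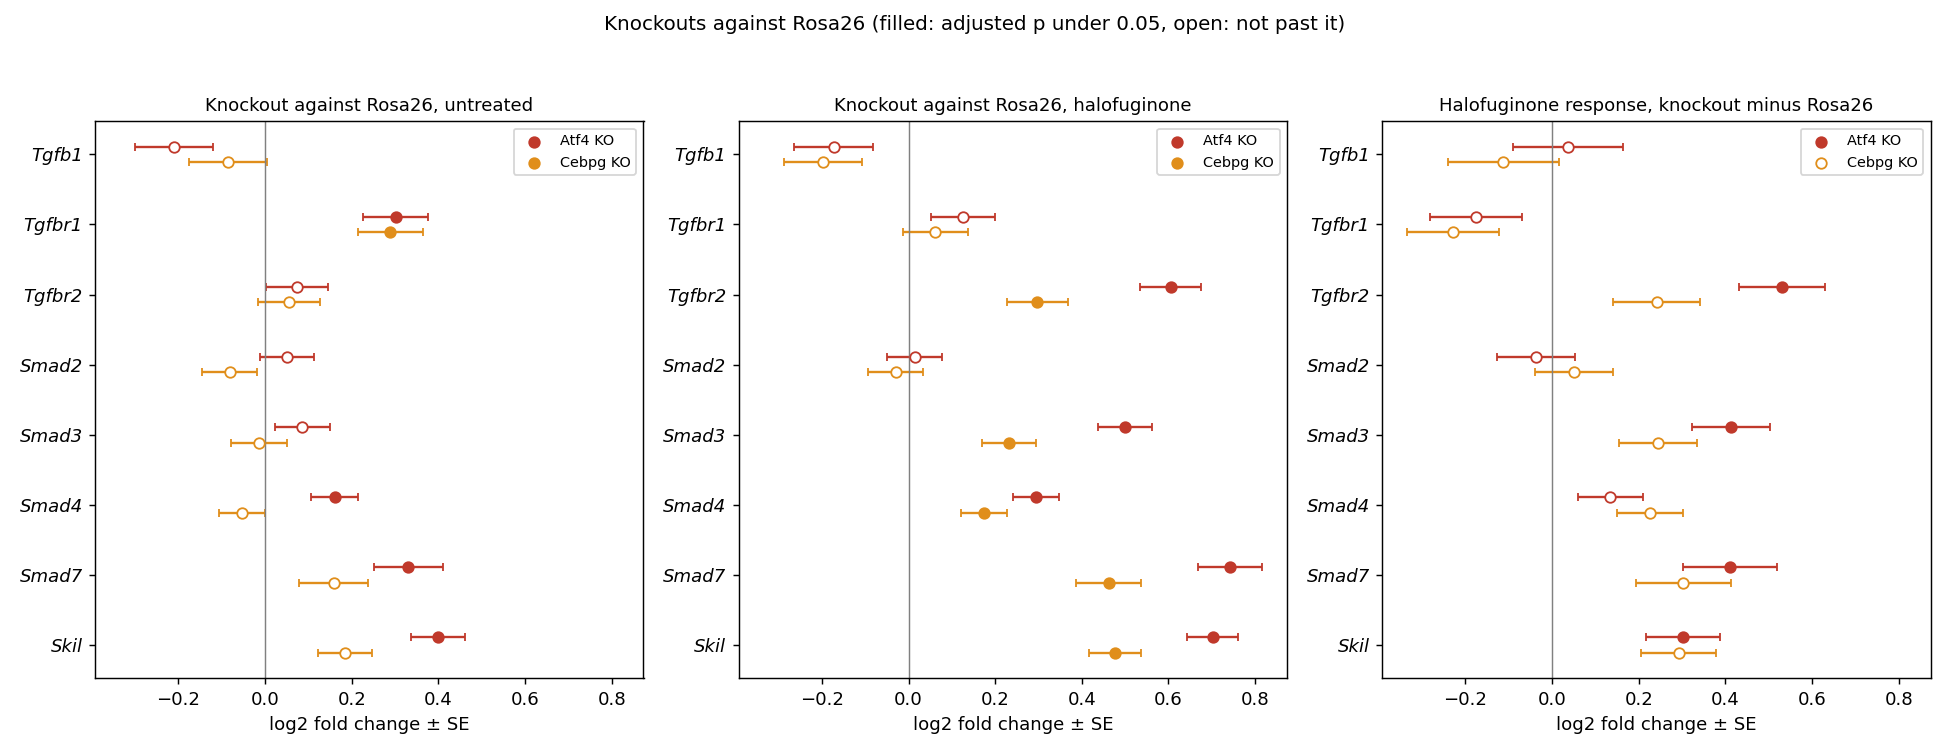
Log2 fold change of each gene (x axes, error bars 1 standard error) in Atf4 KO and Cebpg KO cells against Rosa26 cells, untreated (left panel) and with halofuginone (middle panel), and the drug response in each knockout minus that in Rosa26 cells (right panel). Filled points are past an adjusted p of 0.05: 4 and 1 genes untreated, 5 and 5 with the drug, and 4 and 0 in the difference of responses.

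The size of the drug response was compared between genotypes by an interaction term. It was larger in Atf4 KO than in Rosa26 cells for 4 of the 8 genes and smaller for 0, where 2.41% of all genes were called with a higher and 4.01% with a lower response. Tgfbr2 rose more by 0.53 ± 0.100 (adjusted p = 0.00283), Smad3 by 0.41 ± 0.0896 (adjusted p = 0.00760), Smad7 by 0.41 ± 0.108 (adjusted p = 0.0263) and Skil by 0.30 ± 0.0862 (adjusted p = 0.0405). For Smad4 the difference was 0.13 (adjusted p = 0.344). The calls of Tgfbr2 and Smad3 held in each leave-one-out fit. The Skil call was lost with upper-quartile scaling (adjusted p = 0.0679), with the compared libraries fitted alone (adjusted p = 0.0557) and in 10 leave-one-out fits (adjusted p from 0.0707 to 0.0996), those without an untreated Rosa26 or Atf4 KO library, treated Rosa26 replicate 1 or 3, or treated Atf4 KO replicate 1 or 2. That of Smad7 was lost in 7 such fits (adjusted p from 0.0515 to 0.0779), those without treated Rosa26 replicate 1 or 3, untreated Rosa26 replicate 2 or 3, treated Atf4 KO replicate 1, and untreated Atf4 KO replicate 1 or 2.

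The response of Cebpg KO against that of Rosa26 cells gave 0 calls among the 8 genes with edgeR's quasi-likelihood test, where 0.374% of all genes were called with a higher and 2.1% with a lower response. At an unadjusted p under 0.05 it gave 5 higher and 1 lower, and DESeq2 called 5. Skil differed by 0.29 (adjusted p = 0.0862), Smad7 by 0.30 (adjusted p = 0.182), Smad3 by 0.25 (adjusted p = 0.195), Tgfbr2 by 0.24 (adjusted p = 0.272) and Smad4 by 0.23 (adjusted p = 0.142). All 5 came under the threshold without Atf4 KO halofuginone replicate 3 (adjusted p from 0.00537 to 0.0464). That library is not in this comparison and enters only through the scaling and spread estimated over all libraries. Without it the 5 differences were 0.29 to 0.37, as they were with DESeq2. Without Rosa26 halofuginone replicate 2, Tgfbr2 and Smad7 came under the threshold (adjusted p = 0.0270 and 0.0380). Without untreated Cebpg KO replicate 3, Skil did (adjusted p = 0.0287).

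Over all 18 libraries, Pearson correlations of log2 CPM between the 5 genes that rose ran from 0.94 to 0.98, values that carry the drug effect shared by 9 libraries. Within the 9 treated libraries the 10 pairs ran from 0.87 for Tgfbr2 and Smad4 to 0.96 for Tgfbr2 and Smad7. Within the 9 untreated libraries they ran from 0.31 for Tgfbr2 and Smad4 to 0.88 for Smad7 and Skil. Genotype is shared within these sets, so the values describe the libraries and carry no test. Of 9717 genes with a mean of at least 5 CPM, the most similar in pattern were Plekha2 and Cerk for Tgfbr2 (both 0.99), Cmip and Map4k4 for Smad3 (0.99 and 0.98), Mon2 and Tlk2 for Smad4 (both 0.98), Arhgap45 and Tle3 for Smad7 (0.996 and 0.99), and Gramd2b and Kdm7a for Skil (0.997 and 0.996). Smad2, which hardly varied, reached at most 0.71, with Csnk1e, and Tgfbr1 at most 0.79, with Sirt4 and Pcsk7, while Tgfb1 reached 0.90 with Slc35c1.

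Around the core genes, 81 of 112 further pathway genes were measured. Halofuginone raised 42 and lowered 18 of these 81 in Atf4 KO, raised 37 and lowered 18 in Cebpg KO, and raised 39 and lowered 15 in Rosa26 cells, with median log2 fold changes of 0.25, 0.26 and 0.33 in Atf4 KO, Cebpg KO and Rosa26 cells. Of all genes, 23.1% were called higher and 26.5% lower in Atf4 KO cells. The shares were 23.1% higher and 28% lower in Cebpg KO, and 23.6% higher and 24.1% lower in Rosa26 cells. The counts of each list below stand beside these same shares, and no list was tested. Several genes that TGF-beta is known to raise were among those of the 81 that rose most, some of them also brakes of the pathway. So were the receptor gene Acvr2a and Fasl, a gene that TGF-beta is known to lower. Ligand-side genes moved in both directions.

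Of the 15 measured negative regulators besides Smad7 and Skil, 8 rose and 3 fell in Atf4 KO, 10 rose and 3 fell in Cebpg KO, and 9 rose and 1 fell in Rosa26 cells. Ldlrad4, a membrane protein that keeps SMADs from the receptor, had 39.2, 44.3 and 36.8 CPM in treated against 7.8, 7.4 and 7.8 CPM in untreated Atf4 KO cells, and 16.9, 17.3 and 20.1 CPM in treated against 4.7, 4.0 and 4.4 CPM in untreated Rosa26 cells. It rose by 2.38 in Atf4 KO, 2.20 in Cebpg KO and 2.05 in Rosa26 cells. Pmepa1, its relative with the same action, rose by 1.77 in Atf4 KO, 1.73 in Cebpg KO and 1.50 in Rosa26 cells, and Ski, the co-repressor related to Skil, by 0.77, 0.78 and 0.77 in Atf4 KO, Cebpg KO and Rosa26 cells. The ubiquitin ligase gene Smurf2, whose product works with SMAD7, rose by 0.64, 0.79 and 0.54 in Atf4 KO, Cebpg KO and Rosa26 cells. Strap, whose product steadies SMAD7 at the receptor, fell by 0.30, 0.42 and 0.45 in Atf4 KO, Cebpg KO and Rosa26 cells. Fkbp1a and Wwp1 were also called lower in both knockouts. The log2 fold changes in Atf4 KO and Cebpg KO cells were -0.22 and -0.37 for Fkbp1a, and -0.23 and -0.27 for Wwp1. Neither passed the test in Rosa26 cells (adjusted p = 0.511 for Fkbp1a and 0.526 for Wwp1).

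**Figure D4:**
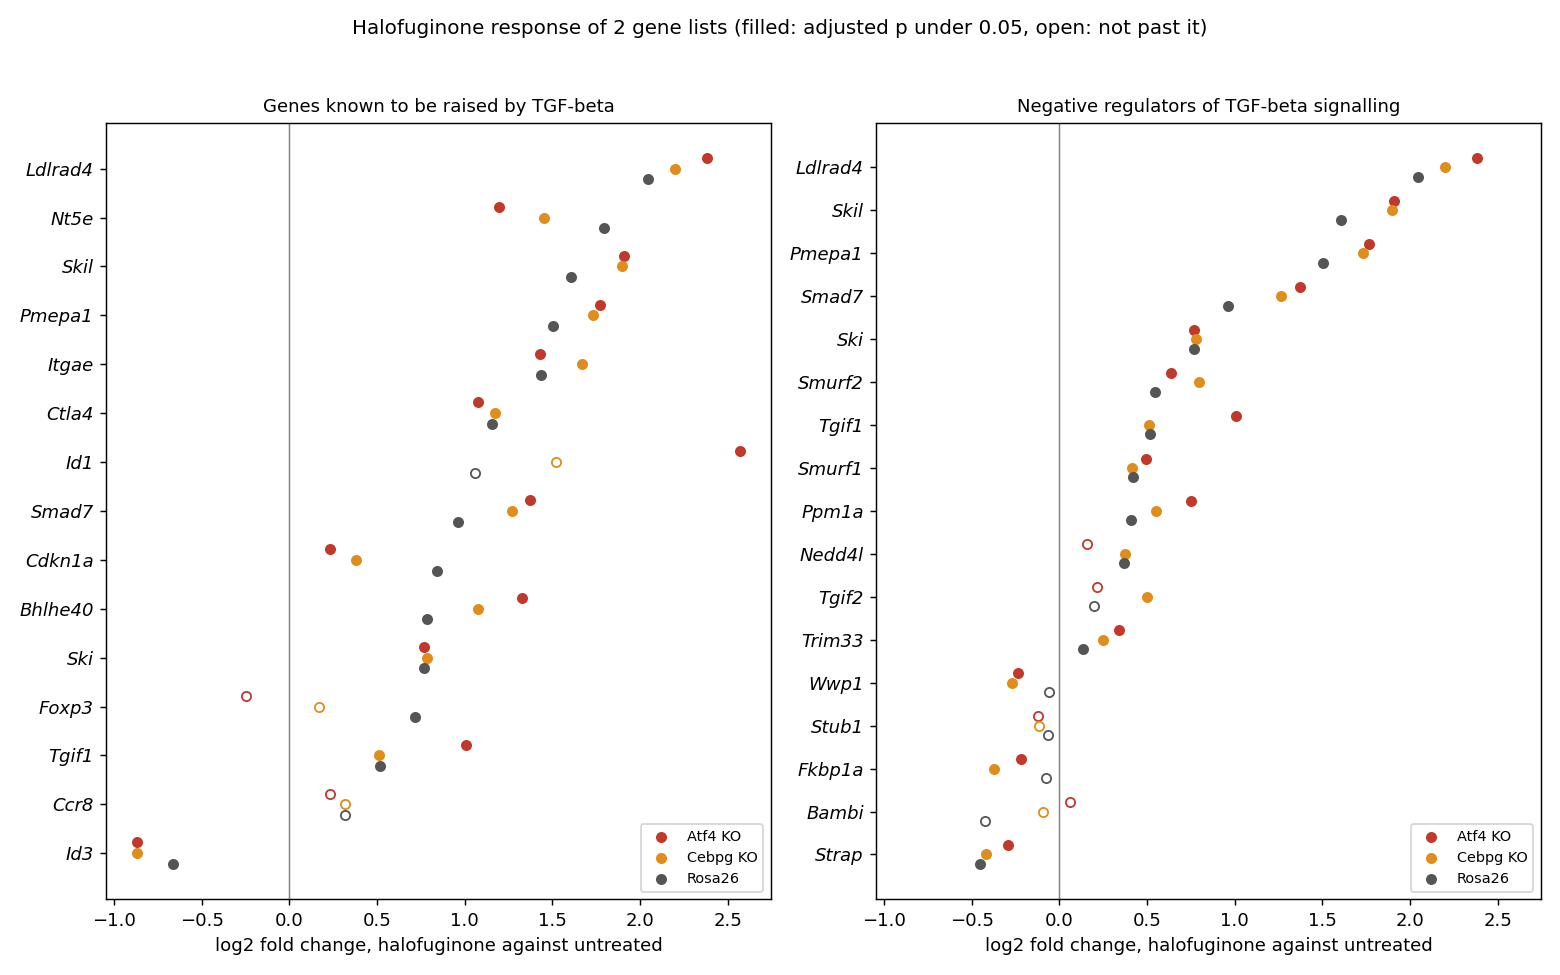
Log2 fold change with halofuginone against untreated cells (x axes) in Atf4 KO, Cebpg KO and Rosa26 cells for each measured gene of the lists of genes raised by TGF-beta (left) and negative regulators (right), the core genes Smad7 and Skil included, with filled points past an adjusted p of 0.05. Ldlrad4 lies highest in Rosa26 cells at 2.05. Id3 in the left panel and Strap, Fkbp1a, Wwp1 and Stub1 in the right lie left of 0 in each genotype.

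Of the 13 measured genes known to be raised by TGF-beta, the core genes not counted, 10 rose and 1 fell in Atf4 KO, 9 rose and 1 fell in Cebpg KO, and 10 rose and 1 fell in Rosa26 cells, with median log2 fold changes of 1.07, 1.08 and 0.84 in Atf4 KO, Cebpg KO and Rosa26 cells. Some of these, Ldlrad4, Pmepa1, Ski and Tgif1, are also in the list of negative regulators. Itgae, the CD103 gene, had 178.5, 176 and 203 CPM in treated against 64.7, 73.2 and 69.4 CPM in untreated Atf4 KO cells. It had 158, 163 and 158 CPM in treated against 45.7, 53.8 and 51.0 CPM in untreated Cebpg KO cells, and 80.5, 87.9 and 86.7 CPM in treated against 31.3, 32.7 and 30.4 CPM in untreated Rosa26 cells. No treated and untreated libraries overlapped, and Itgae rose by 1.43, 1.67 and 1.43 in Atf4 KO, Cebpg KO and Rosa26 cells (adjusted p = 2.02e-12, 2.38e-13 and 4.71e-12). Itgae was also higher in both knockouts than in Rosa26 cells, by 1.13 in Atf4 KO and 0.67 in Cebpg KO cells untreated, and by 1.13 in Atf4 KO and 0.91 in Cebpg KO cells with the drug. Nt5e, which encodes the adenosine-forming enzyme CD73, rose by 1.19, 1.45 and 1.80, and the checkpoint gene Ctla4 by 1.07, 1.17 and 1.15 in Atf4 KO, Cebpg KO and Rosa26 cells.

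Of the 11 measured genes known to be lowered by TGF-beta, 3 rose and 5 fell in Atf4 KO, 2 rose and 5 fell in Cebpg KO, and 3 rose and 4 fell in Rosa26 cells, with medians of -0.03, -0.37 and -0.14 in Atf4 KO, Cebpg KO and Rosa26 cells. Eomes, a transcription factor of effector and memory CD8 T cells, fell by 1.57, 1.63 and 1.50, and the granule protease gene Gzmb fell by 0.44, 0.41 and 0.31 in Atf4 KO, Cebpg KO and Rosa26 cells. Some genes went the other way, among them Fasl, the ligand of the death receptor FAS. Fasl rose by 1.75, 2.01 and 1.59 in Atf4 KO, Cebpg KO and Rosa26 cells. In Rosa26 cells the highest value of this list was 1.64, for another gene. The phosphatase gene Cdc25a fell by 0.95, 1.12 and 0.75 in Atf4 KO, Cebpg KO and Rosa26 cells. Of 13 fibrosis genes 2 were measured, Tagln and Timp1, both at or below 1.19 CPM in every library. Both were called higher with halofuginone in Atf4 KO cells (adjusted p = 0.0415 and 0.00355), and Timp1, an inhibitor of matrix proteases, also in Cebpg KO (adjusted p = 0.00489) and Rosa26 cells (adjusted p = 0.00617). Timp1 had 9, 19 and 8 reads in treated against 2, 2 and 1 in untreated Atf4 KO cells, 21, 6 and 15 in treated against 4, 3 and 1 in untreated Cebpg KO cells, and 10, 2 and 10 in treated against 1, 1 and 0 in untreated Rosa26 cells, too few to give a fold change.

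SMAD nuclear partners largely rose, with 11 of 13 higher and 2 lower in Atf4 KO, 10 higher and 2 lower in Cebpg KO, and 9 higher and 2 lower in Rosa26 cells. The acetyltransferase gene Crebbp rose by 0.73, 0.84 and 0.79 and its relative Ep300 by 0.55, 0.55 and 0.51 in Atf4 KO, Cebpg KO and Rosa26 cells. Runx3, a lineage factor of CD8 T cells that binds SMADs, is listed with them and rose by 0.75, 0.92 and 0.93 in Atf4 KO, Cebpg KO and Rosa26 cells. E2f4, which acts with SMAD3 in repression, fell by 0.43, 0.46 and 0.42 in Atf4 KO, Cebpg KO and Rosa26 cells.

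Among the 9 other receptors of the family that were measured, 5 rose and 2 fell in Atf4 KO, 3 rose and 2 fell in Cebpg KO, and 4 rose and 1 fell in Rosa26 cells. The activin receptor gene Acvr2a rose by 1.59, 2.07 and 1.95 at a level of at most 9.6 CPM on average, and the BMP receptor gene Bmpr2 by 1.54, 1.21 and 1.19 in Atf4 KO, Cebpg KO and Rosa26 cells. Acvrl1, a receptor known from endothelium, fell by 1.31, 1.56 and 1.55 in Atf4 KO, Cebpg KO and Rosa26 cells. Smad1 and Smad5, which carry BMP signals, were the measured members of the rest of the SMAD family: Smad5 rose by 0.54, 0.45 and 0.37, and Smad1 was -0.19, -0.04 and 0.01 in Atf4 KO, Cebpg KO and Rosa26 cells (adjusted p = 0.0940, 0.788 and 0.959).

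On the ligand side 8 genes besides Tgfb1 were measured, of which 1 rose and 2 fell in Atf4 KO, 1 rose and 2 fell in Cebpg KO, and 2 rose and 2 fell in Rosa26 cells. Furin, the protease that cuts the TGF-beta precursor, rose by 0.85, 0.90 and 1.03 in Atf4 KO, Cebpg KO and Rosa26 cells. Nrros, which tethers latent TGF-beta on myeloid cells, fell by 0.74, 1.00 and 0.71 in Atf4 KO, Cebpg KO and Rosa26 cells. Lrrc32 (GARP), which presents latent TGF-beta on regulatory T cells and platelets, fell by 0.72 in Atf4 KO and 0.48 in Cebpg KO cells and was 0.12 in Rosa26 cells (adjusted p = 0.0783). Of 12 measured positive regulators, 5 rose and 3 fell in Atf4 KO, 4 rose and 3 fell in Cebpg KO, and 4 rose and 4 fell in Rosa26 cells.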

How the data were processed

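The authors deposited raw read counts per gene for 18 libraries, as the file headers state and the whole values bear out. Per the submitters' processing notes, FastQC, MultiQC, Trimmomatic, STAR, HTSeq and edgeR were used with the mouse build GRCm39. The sources used here do not give tool versions and settings, the annotation or the strandedness of the counting. The core genes share no exon bases with other genes of GENCODE M21, which is on another build and was used only for this, for gene class and for exon length. Names were blank for 449 genes, and 431 were filled by identifier from a separate reference list of gene names.

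From the counts, all 18 libraries and 14695 genes were fitted at once, with 6 group means, with edgeR 4.0.16 in R 4.3.3 (TMM scaling, robust quasi-likelihood F tests), giving 9 comparisons. The standard error is the absolute log2 fold change divided by the square root of F. Log2 CPM for correlations used a prior count of 2, and exon lengths were unions of exons. Alternatives were RLE and upper-quartile scaling, a mean of at least 50 counts, a replicate block, only the libraries compared, DESeq2 1.42.0, leaving out each library, and leaving out the 3 libraries that stood apart by unconfirmed transcripts. No libraries were duplicates by a chi-square test of counts within groups.

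The members and lists were chosen with earlier results of these data known, so no list was tested. Promoters were found in the RefSeq table (GRCm38.p6) for 4 of the 8 genes. The text names the 8 genes in every comparison. From each pathway list it draws on up to 4 other measured genes with the smallest p for halofuginone in Rosa26 cells, and any listed gene called in an interaction or an untreated knockout comparison, and from each gene's most similar patterns on the first 2.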

Additional observations from a re-analysis of the deposited data

Results flagged for a closer look

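These genes are listed because their response to halofuginone differed between a knockout and Rosa26 cells, by the interaction in the edgeR quasi-likelihood fit (adjusted p under 0.05 over all genes). Values are the log2 response in the knockout minus that in Rosa26 cells, and no explanation was weighed.

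In Atf4 KO cells the response was larger for the core genes Tgfbr2 (0.53), Smad3 (0.41), Smad7 (0.41) and Skil (0.30), with the limits given for Smad7 and Skil above. It was also larger for Runx1 (1.09), a transcription factor that binds SMADs, Bhlhe40 (0.54), Tgif1 (0.49), a co-repressor of SMADs, Tab1 (0.43) and Sp1 (0.27). The response was smaller in Atf4 KO cells for Ltbp4 (-1.57), which binds latent TGF-beta, Foxp3 (-0.96), Lrrc32 (-0.84), Cdkn1a (-0.61), which encodes a cell cycle inhibitor, and Nt5e (-0.60). Ltbp4 was low, at group means of 1.5 to 3.5 CPM, and Foxp3 at 4.8 to 10.8 CPM. In Cebpg KO cells the response was smaller for Lrrc32 (-0.59), Cdc25a (-0.37) and Rbl1 (-0.34). The targeted gene Cebpg itself responded less in Atf4 KO (-0.54) and in Cebpg KO cells (-0.86).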

How the results depend on the processing

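No call among the 8 genes changed direction under any alternative. Of 34 calls, 33 were kept with RLE scaling, 33 with upper-quartile scaling, 34 among genes of at least 50 counts, 33 with only the libraries compared, 34 without the 3 libraries that stood apart (a setting named with earlier results known), 33 with DESeq2 and 30 to 34 when 1 library was left out. Upper-quartile scaling moved the median of all genes by 0.108 on the log2 scale in the halofuginone comparison of Cebpg KO cells.

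Counts of the 8 genes and of all genes moved most in the untreated Cebpg KO comparison and the interactions. In untreated Cebpg KO cells, 735 genes were called, against 1536 (RLE), 1311 (50 counts), 4113 (only the libraries compared), 3929 (without the 3 libraries) and 2020 (DESeq2), and 2 of the 8 genes in place of 1 with only the libraries compared and without the 3 libraries. In untreated Atf4 KO cells 3827 genes became 6086 with only the libraries compared and 6158 without the 3 libraries, and in treated Atf4 KO cells 4128 became 2373 with only the libraries compared. For the interaction with Atf4 KO, 943 became 617 (only the libraries compared), 2194 (without the 3 libraries) and 1508 (DESeq2). For that with Cebpg KO, 363 became 1051 (without the 3 libraries) and 648 (DESeq2), and of the 8 genes, 0 became 2 (RLE), 1 (upper quartile), 3 (50 counts), 4 (only the libraries compared), 2 (without the 3 libraries) and 5 (DESeq2). The cause was not tested.

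With 1 library left out, all genes called ranged from 6545 to 7627 (halofuginone in Atf4 KO), 6726 to 8096 (in Cebpg KO), 6149 to 7727 (in Rosa26), 2756 to 5082 (untreated Atf4 KO), 203 to 2638 (untreated Cebpg KO), 3302 to 5264 (treated Atf4 KO), 1775 to 3679 (treated Cebpg KO), 650 to 1479 (Atf4 KO interaction) and 210 to 679 (Cebpg KO interaction). The core genes called ranged from 3 to 4, 0 to 1, 5 to 5, 3 to 5, 2 to 4 and 0 to 5 in the last 6 of these.

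The share of called genes that were higher moved with scaling: from 44.9% to 57.6% (upper quartile) in untreated Atf4 KO, 54.1% to 26.2% (RLE) in untreated Cebpg KO, 41.9% to 52.2% and 30.4% to 50.7% (upper quartile) in treated Atf4 KO and Cebpg KO, 37.5% to 59% (RLE) in the Atf4 KO interaction and 15.2% to 40.7% (RLE) in the Cebpg KO interaction.

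Replicate numbers did not pair the libraries: same-numbered libraries correlated with a median of -0.0234 over 45 pairs, 12 of them over 0.1, and 5 of 18 libraries correlated best with their own number. With the replicate block, 32 of the 34 calls were kept, and those lost were Tgfbr1 in untreated Cebpg KO cells (adjusted p = 0.0520), which left 0 of the 8 genes called there, and the Skil interaction with Atf4 KO (adjusted p = 0.0651).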
